A study of Mus musculus with 12 samples.

Results

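The Wnt/β-catenin program of the blood-brain barrier was followed in cerebral vessels through 10 genes: Notum, Axin2, Lef1, Apcdd1, Tcf7, Nkd1, Fzd4, Fzd6, Lrp6 and Tnfrsf19. They are Wnt receptors, nuclear partners, targets and feedback genes of brain endothelium, picked by name for these roles when earlier results of these data were already known. They are 10 of the 54119 genes with summed counts, and all 10 were among the 19150 genes with enough counts to be tested.

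The cerebral vessels were isolated from wild type C57BL6 mice of 8 to 12 weeks. The mice received lipopolysaccharide (LPS, a bacterial cell wall component that causes systemic inflammation) at 10 mg/kg into the peritoneum 4 h, 30 min or 15 min before the vessels were taken, or PBS alone. Each of the 4 groups held 3 RNA-seq libraries, and each library pooled the vessels of 1 male and 1 female. Depth ran from 18.3 to 25.9 M fragments per library.

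In the canonical pathway, Wnt ligands and Norrin bind a Frizzled receptor together with Lrp5 or Lrp6, which stops the Axin and Apc complex from marking β-catenin for destruction. β-catenin then enters the nucleus, joins a LEF/TCF factor and turns on target genes, several of which act back on the pathway as inhibitors. In brain endothelium this signal builds and keeps the barrier, and Claudin-5 and the glucose transporter Slc2a1 are among its known outputs.

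At LPS 4 h, 8 of the 10 genes fell, Fzd4 rose, and the change of Lrp6 did not pass the test. The falls ran from 49.2-fold for Notum to 1.57-fold for Lef1, and Fzd4 rose 3.58-fold. A gene was called when the edgeR test for a change beyond 1.5-fold gave an adjusted p below 0.05. Of all tested genes 33% were called at LPS 4 h, with 19.1% higher and 13.9% lower. On the log2 scale the median change of the 10 genes was -2.18, beside -0.01 for all tested genes. At LPS 15 min only Tnfrsf19 of the 10 was called, lower, where 4.25% of all tested genes were called, 3.35% higher and 0.898% lower. At LPS 30 min only Fzd4 was called, higher, where 4.62% of all tested genes were called, 3.8% higher and 0.815% lower. Each LPS group was compared with the same 3 PBS libraries, so these comparisons are not independent of each other.

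**Figure D1:**
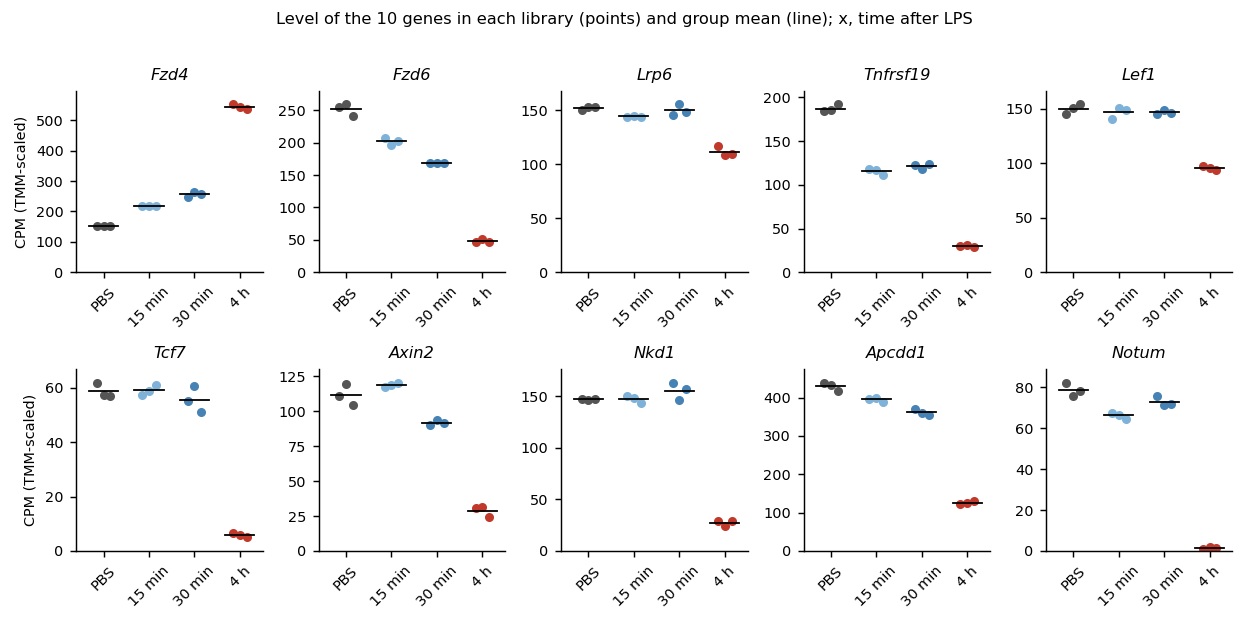
Level of each of the 10 genes in CPM (fragment counts scaled to library size and composition, linear axis from 0) in the 12 libraries by group. Points are libraries and lines are group means of 3 libraries. At 4 h all 10 genes lie apart from PBS, Fzd4 above it and the other 9 below it. The same held for 70.9% of all tested genes, 35.9% higher and 35% lower.

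At the receptors, the 2 Frizzled genes moved in opposite directions. Levels are given as CPM, fragment counts scaled to library size and by the TMM factor (a correction for library composition), with the 3 libraries of a group in order of their number. Fzd4 (ENSMUSG00000049791, chr7:89404355-89413134 of GRCm38, plus strand) encodes the receptor that binds Norrin as well as Wnts and is needed for the barrier of the retina and brain. It stood at 153, 152 and 151 CPM in PBS and at 553, 543 and 537 CPM at LPS 4 h. Between them, its libraries held 217, 217 and 219 CPM at LPS 15 min and 247, 265 and 257 CPM at LPS 30 min. The 4 groups did not overlap and lay in the order of time. Against PBS the log2 fold change was 0.52 ± 0.03 (SE) at 15 min, not called (adjusted p = 1), then 0.75 ± 0.03 at 30 min (adjusted p = 7.45e-06) and 1.84 ± 0.03 at 4 h (adjusted p = 1.49e-22). The call at 30 min was made under 10 of 12 other settings, and not with scaling by library size only. The rise from 30 min to 4 h was itself called, at 1.09 ± 0.03 (adjusted p = 3.76e-15). That call too was made under 10 of 12 other settings, and not with scaling by library size only.

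Fzd6 (ENSMUSG00000022297, chr15:39006034-39038188, plus strand), a Frizzled known for planar cell polarity and for signalling that bypasses β-catenin, went the other way. Its PBS libraries held 256, 259 and 242 CPM and its LPS 4 h libraries 46.8, 50.7 and 47.0 CPM. The early libraries lay between, at 207, 196 and 202.8 CPM for 15 min and at 169, 169 and 169 CPM for 30 min. No 2 groups overlapped, and the level was lower at each later time. As a log2 fold change, 15 min gave -0.32 ± 0.03 and 30 min gave -0.58 ± 0.03, neither called (adjusted p = 1 for both), while 4 h gave -2.39 ± 0.04 (adjusted p = 2.35e-22).

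Lrp6 (ENSMUSG00000030201, chr6:134446476-134566965, minus strand), the co-receptor that carries the signal into the cell, had the least change at 4 h. Its libraries held 150, 153 and 153 CPM in PBS, 144, 145 and 144 CPM at 15 min, 145, 156 and 149 CPM at 30 min, and 117, 109 and 110 CPM at 4 h. The 4 h libraries lay below all 9 others. The log2 fold change of -0.45 ± 0.03 at 4 h was smaller than the limit of 1.5-fold that the test asked for (adjusted p = 1). Tested against no change, the same value had an adjusted p of 8.41e-11. Scaled by library size only, which lowers all genes at 4 h, Lrp6 stood at -1.15 and was called.

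Tnfrsf19 (ENSMUSG00000060548, chr14:60963875-61046490, minus strand) encodes Troy, a receptor of the TNF receptor superfamily that is enriched in brain endothelium and is a Wnt target in several tissues. It was at 184, 185 and 192 CPM in PBS, at 118, 117 and 112 CPM by 15 min, and at 122, 118 and 124 CPM at 30 min. At 4 h it held 30.5, 31.7 and 29.5 CPM. The 15 and 30 min libraries overlapped each other and lay below PBS, and the 4 h libraries lay below both. The log2 fold change from PBS was -0.70 ± 0.03 after 15 min (adjusted p = 0.00626), -0.63 ± 0.03 at 30 min, not called (adjusted p = 0.362), and -2.61 ± 0.04 at 4 h (adjusted p = 1.68e-22). The call at 15 min rested in part on 1 library, since without LPS 15 min replicate 3 the adjusted p was 0.0638, and 8 of 12 other settings made it. At 15 min the summed smooth muscle markers were also lower, at 1488 to 1508 CPM against 2346 to 2382 CPM in PBS with 3 of 4 markers called lower, and neuron markers summed to 490 to 502 CPM against 317 to 329 CPM with 2 of 6 called higher. Fibroblast markers summed to 313 to 331 CPM against 434 to 458 CPM, with 1 of 5 called lower (Col1a1), and astrocyte markers to 554 to 599 CPM against 717 to 739 CPM, with 1 of 6 lower (Gfap). Of the 10 endothelial markers, which summed to 6781 to 6820 CPM against 7377 to 7434 CPM, Kdr was called lower, and T cell and neutrophil markers each had 1 called lower. The part of these shifts in the change of Tnfrsf19 was not tested.

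The nuclear partners Lef1 and Tcf7 both encode HMG-box factors that bind β-catenin, and both are also known from lymphocytes. Tcf7 (ENSMUSG00000000782, chr11:52252371-52283014, minus strand) was at 61.9, 57.4 and 57.1 CPM in PBS and at 6.55, 5.79 and 5.19 CPM at 4 h. In between it held 57.4, 58.9 and 60.9 CPM at 15 min and 55.0, 60.5 and 51.1 CPM at 30 min, both overlapping PBS. Its log2 fold change stood at 0.01 ± 0.06 by 15 min and -0.08 ± 0.06 at 30 min, then -3.33 ± 0.09 at 4 h (adjusted p = 1.18e-18), a 10.1-fold fall.

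Lef1 (ENSMUSG00000027985, chr3:131110471-131224356, plus strand) changed far less. Its libraries held 145, 150 and 154 CPM in PBS, 141, 151 and 149 CPM at 15 min, 145, 149 and 146 CPM at 30 min, and 97.5, 95.8 and 94.0 CPM at 4 h. Only the 4 h libraries lay apart from the rest. The log2 fold change was -0.03 ± 0.03 at both early times and -0.65 ± 0.04 at 4 h (adjusted p = 0.03). This call lay close to the limit: 6 of 12 other settings did not make it, among them DESeq2 (adjusted p = 0.365), and it was also lost without PBS replicate 3 (adjusted p = 0.086) and without LPS 4 h replicate 3 (adjusted p = 0.0891).

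Tcf7 and Lef1 are also expressed by T cells. The 7 T cell markers summed to 5.73 to 6.41 CPM in PBS and to 7.79 to 9.77 CPM at 4 h, where 2 were called higher and 1 lower. None of the 7 was at 0 in every library of a group, and their part in the levels of Tcf7 and Lef1 was not tested.

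The targets that act back on the pathway fell together at 4 h. Axin2 (ENSMUSG00000000142, chr11:108920349-108950783, plus strand) encodes a scaffold of the complex that destroys β-catenin and is a common readout of the pathway. It stood at 111, 119 and 105 CPM in PBS, 117, 119 and 121 CPM at 15 min, 90.4, 93.7 and 91.5 CPM at 30 min, and 30.5, 31.2 and 24.1 CPM at 4 h. The 15 min libraries overlapped PBS, whereas those of 30 min and of 4 h lay below it. Axin2 had a log2 fold change of 0.09 ± 0.05 after 15 min, of -0.28 ± 0.05 after 30 min, not called (adjusted p = 1), and -1.97 ± 0.07 at 4 h (adjusted p = 1.06e-15).

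Nkd1 (ENSMUSG00000031661, chr8:88521354-88594884, plus strand) encodes Naked cuticle 1, which binds Dishevelled and dampens the signal. It held 148, 147 and 148 CPM in PBS, 151, 148 and 143 CPM at 15 min, 163, 146 and 157 CPM at 30 min, and 29.0, 24.1 and 28.8 CPM at 4 h. Neither early group lay apart from PBS. For Nkd1 the log2 fold change stood at 0.00 ± 0.04 after 15 min, 0.08 ± 0.04 after 30 min and -2.44 ± 0.05 at 4 h (adjusted p = 1.49e-19).

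Apcdd1 (ENSMUSG00000071847, chr18:62922231-62961179, plus strand), a membrane glycoprotein that blocks Wnt receptors and shapes barrier vessels, was the most abundant of the 10 genes in PBS by TPM. Its PBS libraries held 439, 432 and 417 CPM and its 4 h libraries 122, 125 and 129 CPM. The levels between were 397, 400 and 389 CPM at 15 min and 370, 360 and 354 CPM at 30 min. All 4 groups were separate and each was lower than the one before. Apcdd1 had a log2 fold change of -0.12 ± 0.03 after 15 min and of -0.25 ± 0.03 after 30 min, neither called (adjusted p = 1), and -1.77 ± 0.03 at 4 h (adjusted p = 2.96e-21).

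Notum (ENSMUSG00000042988, chr11:120653788-120661175, minus strand) encodes a secreted enzyme that strips the lipid from Wnt proteins and so inactivates them. It was at 82.3, 75.7 and 78.3 CPM in PBS, 67.6, 66.7 and 64.8 CPM at 15 min, and 75.6, 71.2 and 72.1 CPM at 30 min. At 4 h it was at 1.00, 2.06 and 1.64 CPM, from 13, 31 and 24 fragments against 2050 to 2245 in PBS. The 4 h level was thus counted from few fragments, but above the 3 that a count of 0 would allow. Each of the 3 LPS groups lay below PBS without overlap. Notum had a log2 fold change of -0.25 ± 0.05 after 15 min and of -0.11 ± 0.05 after 30 min, neither called (adjusted p = 1), and -5.62 ± 0.10 at 4 h (adjusted p = 2.59e-22). Across 12 other settings the 4 h value ran from -6.32 to -5.24.

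**Figure D2:**
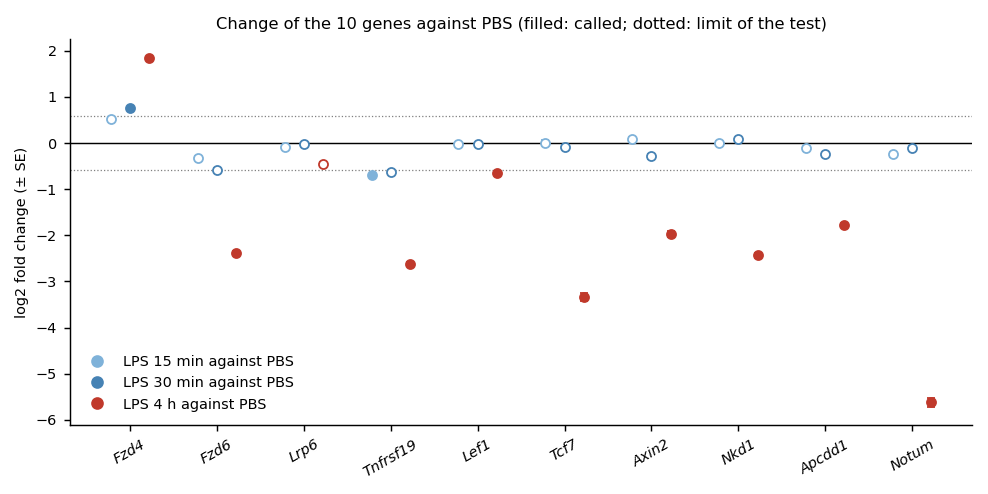
Log2 fold change (± SE, from the edgeR fit on 3 libraries per group) of the 10 genes at the 3 times after LPS, each against the same PBS libraries. Filled points were called, open points were not, and dotted lines mark the limit of the test at 0.58. Most early points lie within the limit, and at 4 h Notum reaches -5.62 and Fzd4 1.84.

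The split by time was tested directly. From 30 min to 4 h, 8 of the 10 genes were called, 7 lower and Fzd4 higher, where 28.9% of all tested genes were called, 17% higher and 11.9% lower. Lef1 (-0.62 ± 0.04, adjusted p = 0.161) and Lrp6 (-0.42 ± 0.04, adjusted p = 1) were not. From 15 to 30 min edgeR called 0 of the 10, with 0 at an unadjusted p under 0.05 and 0 by DESeq2 or limma, where 4.76% of all tested genes were called, 2.77% higher and 1.99% lower. Libraries did not overlap with PBS for 6 of the 10 genes at 15 min, 6 at 30 min and 10 at 4 h. The same held for 49.3% of all tested genes at 15 min, 25.2% higher and 24.1% lower, and for 46.7% at 30 min, 23.7% higher and 23% lower. At 4 h it held for 70.9%, 35.9% higher and 35% lower. It also held for 6 of the 10 genes between 15 and 30 min and for 10 between 30 min and 4 h, where it held for 47.6% of all tested genes (23.7% higher, 23.9% lower) and for 67.5% (33.1% higher, 34.4% lower).

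These are bulk samples, so fewer cells of a type and less RNA per cell cannot be told apart. The 10 endothelial markers summed to 7377 to 7434 CPM in PBS and to 6640 to 6690 CPM at 4 h, with 2 called higher (Cdh5 and Erg) and 4 lower (Pecam1, Kdr, Tek and Slco1a4). With libraries scaled by that sum, 7 of the 10 genes were called lower at 4 h and Fzd4 higher. The sum holds markers that moved in opposite directions, with Cdh5 at 486 CPM in PBS and 1889 CPM at 4 h, and Slco1a4 at 1154 and 117 CPM. It is thus not a measure of endothelial content, and the scaling cannot show how far that content changed. Marker sums of other cells also moved at 4 h. Neutrophil markers went from 2.06 to 2.67 CPM in PBS up to 170 to 175 CPM with all 4 tested markers called higher, astrocyte markers from 717 to 739 CPM up to 1373 to 1431 CPM with 3 of 6 higher, and microglia markers from 146 to 150 CPM down to 91.5 to 97.5 CPM with 3 of 6 lower. At 30 min 2 of 6 astrocyte markers were called higher. Called lower at 30 min were 1 of 10 endothelial (Kdr), 1 of 5 fibroblast, 1 of 6 microglia and 1 of 6 tested T cell markers. Of the neutrophil markers Ly6g was at 0 in all PBS and all LPS 15 min libraries. The part of these shifts in the changes of the 10 genes was not tested. The remaining lists moved less at 4 h. Pericyte markers summed to 3437 to 3542 CPM against 3709 to 3786 CPM in PBS with 1 of 7 lower, smooth muscle markers to 2218 to 2268 CPM with 0 of 4 called, and fibroblast markers to 299 to 311 CPM against 434 to 458 CPM with 2 of 5 lower. Neuron markers summed to 244 to 255 CPM with 1 of 6 lower and oligodendrocyte lineage markers to 428 to 438 CPM against 381 to 401 CPM with 2 of 7 lower.

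Between genes, levels were compared in TPM, which allows for transcript length. The sum for a gene includes transcripts with no annotated reading frame. In PBS a transcript of this kind held 54.1% of Notum TPM, another 38.8% of Axin2 TPM and another 27.9% of Lrp6 TPM. In PBS Apcdd1 was highest at 137 ± 7.20 TPM (SD, n = 3), ahead of Nkd1 (110 ± 4.15), Fzd6 (103 ± 4.95) and Notum (101 ± 3.08), and no neighbours among these last 3 differed beyond the range of their libraries. Tnfrsf19 (90.1 ± 1.53), Lef1 (85.2 ± 2.91) and Axin2 (68.3 ± 6.39) followed, each apart from the next. Tcf7 (43.4 ± 2.37) and Lrp6 (42.0 ± 1.58) overlapped, and Fzd4 was lowest at 36.7 ± 0.843 TPM. At 4 h Fzd4 stood first at 70.1 TPM, followed by Lef1 at 32.3 TPM, and Notum came last at 1.18 TPM. TPM sums to a constant in each library and is not corrected for composition, so it is used here for order and for shares, not for change.

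Shares of the summed TPM within gene families also differed between PBS and 4 h. These shares were looked at after the values of the 10 genes were known and are given without a test. Fzd6 held 54.7 to 56.7% of the TPM of the 10 Frizzled genes in PBS and Fzd4 19.5 to 20.1%. At 15 min Fzd4 held 30.5 to 31.4%, at 30 min 33.5 to 35.2%, and at 4 h 64.5 to 66.9%, when Fzd6 held 9.55 to 10.2%. Fzd5, at 1.02 to 1.19% in PBS, reached 5.92 to 6.60% at 4 h.

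Among the 4 LEF/TCF genes Lef1 held 53.2 to 56.6% in PBS and 65.4 to 68.2% at 4 h. Tcf7 went from 27.0 to 30.0% down to 4.31 to 4.99%, and Tcf7l2, which encodes the LEF/TCF factor TCF4, from 5.93 to 8.03% up to 21.3 to 21.8%. Lef1 was ahead in both groups. Lrp6 held 42.4 to 44.8% of the TPM of the co-receptor pair in PBS and 61.3 to 63.0% at 4 h. In fragments, which do not allow for length, it was ahead of Lrp5 in both, at 51.3 to 53.6% and 69.0 to 70.8%. Axin2 held 78.0 to 80.5% of the Axin pair in PBS and 43.3 to 45.7% at 4 h. Nkd1 was ahead of Nkd2 in both groups, at 87.9 to 89.0% and 78.8 to 83.8%. In each of these families the PBS and 4 h ranges did not overlap for the members named.

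**Figure D3:**
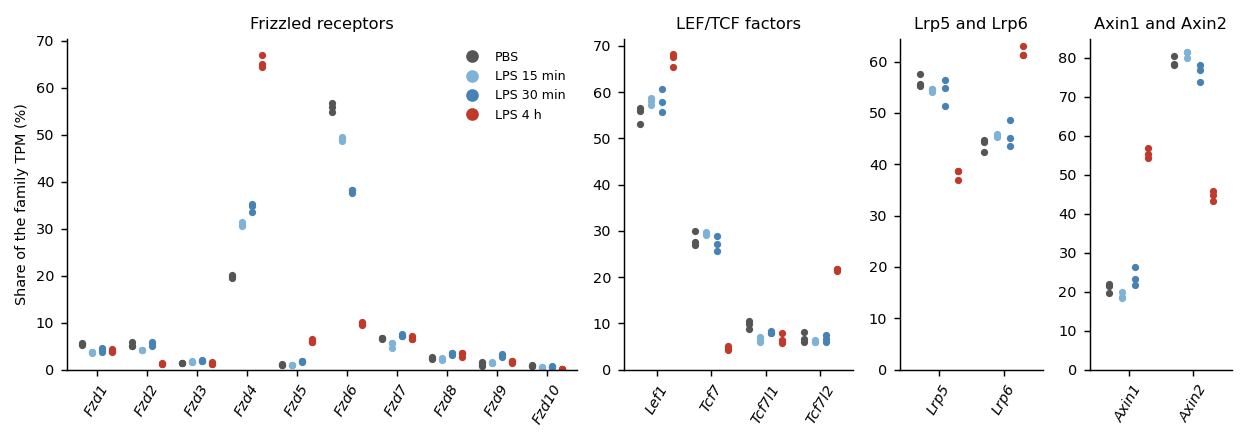
Share of the summed TPM of a gene family (in percent, linear axes from 0) held by each member, for the Frizzled, LEF/TCF, Lrp5 and Lrp6, and Axin families. Each point is 1 library and colours are the 4 groups. Fzd4 passes Fzd6 by 4 h, when it holds 64.5 to 66.9% of Frizzled TPM, and Tcf7 drops to 4.31 to 4.99% of LEF/TCF TPM.

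The Salmon files also split the genes into transcripts. On average over the 12 libraries, 4 h included, 24 transcripts held at least 10% of the TPM of their gene. Of these, 7 had shares at 4 h that did not overlap PBS, in Axin2, Lef1 and Tnfrsf19. The Lef1 form of 369 codons averaged 4.23% in PBS and 27.3% at 4 h. Its 4 h share thus counted toward passing the 10% limit, so its place among the 7 was not independent of that limit. Shares within a gene depend on each other. The same count was not made over the transcripts of all genes, so whether 7 is more than in other genes was not tested. The exact permutation test of 3 against 3 libraries cannot go below p = 0.1, which each of the 7 reached. Lef1 showed the widest split. The long form of 397 codons held 47.3, 41.9 and 39.9% of Lef1 TPM in PBS and was listed at 0 in all 3 libraries at 4 h. At 15 min it held 26.9 to 36.1% and at 30 min 18.5 to 33.2%. The form of 369 codons held 0 to 6.42% in PBS and 25.8 to 29.5% at 4 h, and the form of 331 codons went from 38.5 to 47.5% up to 61.0 to 68.1%.

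What separates the form of 369 codons from the long form is exon 6, at chr3:131191023-131191106 of GRCm38 on the plus strand. It is a coding exon of 84 bases, which is 28 codons, so its skipping keeps the reading frame. It is shown because the share of Lef1 transcripts that hold it was lower at 4 h, and no part of it is in capitals.
Lef1 exon 6: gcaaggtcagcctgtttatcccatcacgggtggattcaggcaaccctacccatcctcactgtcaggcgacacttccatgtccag
Transcripts with exon 6 made up 85.8 ± 3.57% (SD, n = 3) of Lef1 TPM in PBS and 64.9 ± 3.60% at 4 h (exact permutation p = 0.1). Those that start with the first coding exon of the long form, whose coding part of 69 codons lies at chr3:131111472-131111678, made up 56.8 ± 4.56% in PBS and 34.2 ± 3.16% at 4 h (exact permutation p = 0.1). The form of 331 codons begins downstream of that exon instead, at chr3:131112797-131112820. In fragments rather than TPM the share with exon 6 dropped by 28.9 points rather than 20.9. Salmon divides fragments among transcripts with much shared sequence, and the error of that division was not analysed here.

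**Figure D4:**
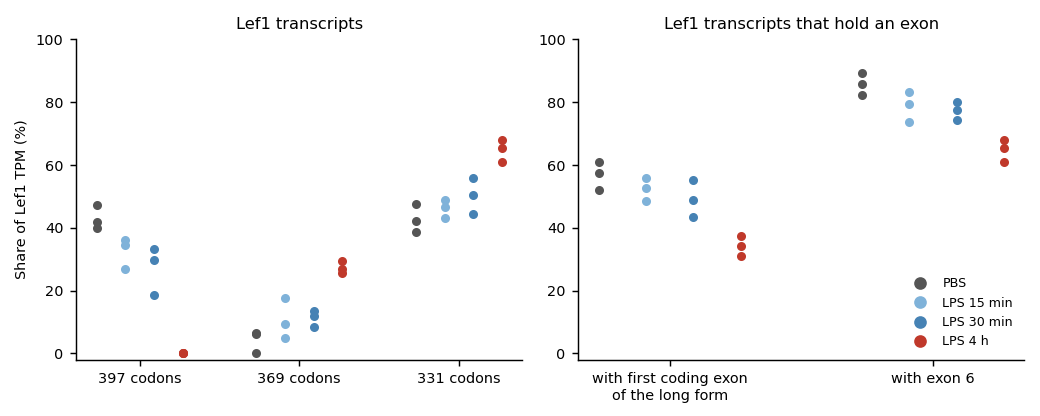
Share of Lef1 TPM (in percent) held by 3 transcripts, left, and by transcripts that contain the first coding exon of the long form or exon 6, right. Each point is 1 library and colours are the 4 groups. The long form of 397 codons is at 0 in the 4 h libraries, and the form of 331 codons reaches 61.0 to 68.1%.

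For Axin2 the coding transcript of 840 codons held 43.0 ± 2.15% of TPM in PBS and 31.5 ± 9.15% at 4 h, and a transcript with no annotated reading frame 38.8 ± 4.30% and 54.4 ± 4.37%. LPS 4 h replicate 3 was lowest for the coding transcript, at 20.9% against 37.6 and 35.8% in the other two. For Tnfrsf19 the share of the transcript of 416 codons was 74.5 ± 2.29% in PBS and 86.6 ± 1.82% at 4 h, and that of the transcript of 214 codons 18.2 ± 2.15% and 13.4 ± 1.82%. The rest of the 24 transcripts had shares that overlapped between PBS and 4 h, and those of Notum at 4 h came from at most 18 fragments a transcript.

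Some of the 10 genes overlap others, and as the SMART-Seq v4 kit does not mark strand, reads from overlapping strands cannot be told apart. Notumos, antisense to Notum, went from 18.7 ± 1.79 CPM in PBS to 0.190 ± 0.0508 CPM at 4 h (log2 fold change -6.59 ± 0.24, adjusted p = 2.79e-16), from 1537 fragments in 3 libraries to 8. Myadml2os, also opposite Notum, had 175 fragments in PBS and 1 at 4 h, 16.0 to 3590-fold lower by the 95% interval of the ratio, which covers counting error only. Gm43352, antisense to Lef1 (-1.42 ± 0.19, adjusted p = 0.000104), A630014C17Rik, antisense to Tcf7 (-1.66 ± 0.36, adjusted p = 0.00303), and Gm26704, beside the start of Fzd6 (-1.54 ± 0.41, adjusted p = 0.0141), were also lower at 4 h. Gm26704 was already lower at 15 min (-1.95 ± 0.39, adjusted p = 0.00816). Levels were low for A630014C17Rik, at 2.36 CPM in PBS and 0.735 CPM at 4 h. They were also low for Gm26704, at 1.85 CPM in PBS, 0.474 CPM at 15 min and 0.633 CPM at 4 h. Gm11670, Gm42449, Gm45496 and Gm41168, which overlap Axin2, Lef1, Nkd1 and Tnfrsf19 in this order, had too few fragments to be tested.

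The starts of the genes were searched for the letters that LEF/TCF factors are known to bind, CTTTG followed by AA, AT, TA or TT, on both strands of the 250 bases before each RefSeq start (build GRCm38.p6). The table held 11 windows for 6 of the 10 genes, with none for Notum, Apcdd1, Fzd6 and Lrp6. A match was found in 2 of the 11 and in 14.8% of all 32851 windows. The windows of the readout gene Axin2, of the 1 gene that rose, Fzd4, and of the downstream one of 2 starts of Tnfrsf19, lower at 15 min, are shown so that the starts of genes that moved differently can be read side by side. They lie at chr11:108920099-108920348 (plus strand), chr7:89404116-89404365 (plus strand) and chr14:61037988-61038237 (minus strand), and capitals mark a match.
Axin2: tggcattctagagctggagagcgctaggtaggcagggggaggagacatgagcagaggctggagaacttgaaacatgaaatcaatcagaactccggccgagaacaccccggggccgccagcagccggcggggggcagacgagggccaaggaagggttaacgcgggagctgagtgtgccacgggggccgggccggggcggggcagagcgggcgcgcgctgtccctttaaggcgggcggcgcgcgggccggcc
Fzd4: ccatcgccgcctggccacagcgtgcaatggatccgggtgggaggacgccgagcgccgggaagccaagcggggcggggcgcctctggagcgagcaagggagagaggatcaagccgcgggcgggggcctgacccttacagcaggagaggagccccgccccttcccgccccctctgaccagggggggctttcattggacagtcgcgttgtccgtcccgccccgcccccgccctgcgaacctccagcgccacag
Tnfrsf19: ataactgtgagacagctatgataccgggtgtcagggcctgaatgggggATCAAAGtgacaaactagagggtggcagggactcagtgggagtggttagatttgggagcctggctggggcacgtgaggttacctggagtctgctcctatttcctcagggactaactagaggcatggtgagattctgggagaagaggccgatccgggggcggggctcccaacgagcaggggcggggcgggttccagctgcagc
The window shown for Tnfrsf19 held 1 match, ATCAAAG, in its distal part, and the windows of Axin2 and Fzd4 held none. That of the upstream start of Tnfrsf19, at chr14:61046856-61047105, held none either. The other match was in a window inside Lef1, at chr3:131156044-131156293. Both are matches of letters, and no binding was measured.

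The rest of the pathway was followed through 108 genes in 7 lists, of which 100 were tested. At 4 h 12 were called higher and 27 lower. Their median change was -0.37 on the log2 scale, beside -0.01 for all tested genes. Of all tested genes 33% were called, 19.1% higher and 13.9% lower. Scaled by library size alone, which moved the median of all genes to -0.71, the split was 6 higher and 63 lower. At both 15 and 30 min 4 were called higher and 3 lower. Of all tested genes 4.25% were called at 15 min (3.35% higher, 0.898% lower) and 4.62% at 30 min (3.8% higher, 0.815% lower).

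Of 24 Wnt, Norrin and R-spondin genes 19 were tested. At 4 h 2 were called higher and 6 lower (all tested genes: 19.1% higher, 13.9% lower). Wnt5b, best known for signalling without β-catenin, rose from 26.3 ± 0.942 to 74.3 ± 2.76 CPM (2.82-fold, adjusted p = 4.09e-12). Wnt10b rose from 0.547 to 1.92 CPM (1.80 ± 0.36, adjusted p = 0.00129) and was called higher at 15 min too (1.65 ± 0.35, adjusted p = 0.0174). Wnt6 fell (-2.92 ± 0.20, adjusted p = 9.02e-11), as it had at 15 min (-1.16 ± 0.15, adjusted p = 0.00237), and so did Wnt2b (-2.13 ± 0.29, adjusted p = 1.52e-05). Wnt9b had 117 fragments in PBS and 1 at 4 h, 10.6 to 2407-fold lower by the 95% counting interval (adjusted p = 3.55e-06). The ligands best known for the barrier were at low levels and not called, with Wnt7a at 1.92 ± 0.481 CPM in PBS and 1.28 ± 0.397 CPM at 4 h, Wnt7b at 3.61 ± 0.421 and 3.51 ± 0.955 CPM, and Ndp, which encodes Norrin, at 0.809 ± 0.478 and 0.315 ± 0.283 CPM. These 3 were picked out after their values were seen. Both genes of ligand secretion, Porcn (-0.55 ± 0.07) and Wls (-0.51 ± 0.04), were not called.

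Of 19 other receptors 2 were called higher and 6 lower at 4 h (all tested genes: 19.1% higher, 13.9% lower). Fzd5 rose 5.86-fold, from 8.64 ± 0.873 to 50.7 ± 2.97 CPM (adjusted p = 5.76e-16), and the R-spondin receptor Lgr4 1.99-fold (adjusted p = 4.68e-06). Fzd10 (-2.97 ± 0.34, adjusted p = 7.33e-07) and Fzd2 (-1.93 ± 0.11, adjusted p = 1.40e-11) fell. The 4 h level of Fzd10 rested on few fragments, 0.0263 to 0.0631% of those of the Frizzled genes. Adgra2, the co-receptor Gpr124 through which brain endothelium reads Wnt7, fell from 351 ± 5.43 to 78.5 ± 6.64 CPM (-2.16 ± 0.04, adjusted p = 2.24e-21). Outside the naming rule, and chosen after their values were seen, are the other co-receptors Lrp5 (-1.51 ± 0.05, adjusted p = 3.41e-15), Reck (2.30-fold lower, adjusted p = 1.11e-14) and Tspan12 (-1.02 ± 0.06, adjusted p = 2.07e-07), which partner Frizzled, Adgra2 and Fzd4 and also fell. Fzd9 was called at 30 min alone, higher (1.38 ± 0.19, adjusted p = 0.0011).

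Few genes of the inhibitors and of the cytoplasm were called. At 4 h 19.1% of all tested genes were called higher and 13.9% lower. Of 14 tested secreted and membrane inhibitors only Nkd2, the relative of Nkd1, was called at 4 h, lower (-1.71 ± 0.08, adjusted p = 7.78e-13). Dkk2, a secreted antagonist of Lrp6, was lower at 15 min (-1.31 ± 0.11, adjusted p = 8.76e-06) and 30 min (-1.11 ± 0.11, adjusted p = 0.000395) and not called at 4 h (0.45 ± 0.11). At 30 min the decoy genes Sfrp2 (-1.47 ± 0.28, adjusted p = 0.0114) and Sfrp5 (1.15 ± 0.13, adjusted p = 0.00094) changed in opposite directions. Of 17 genes of the relay and destruction complex 3 were called higher at 4 h and none lower (all tested genes: 19.1% higher, 13.9% lower). These were the kinases Csnk1a1 (1.28 ± 0.03, adjusted p = 2.96e-18) and Csnk1d (0.93 ± 0.03, adjusted p = 1.24e-10), and Fbxw11, which encodes a ubiquitin ligase subunit that recognises marked β-catenin (1.57 ± 0.04, adjusted p = 1.87e-18). Ctnnb1, which encodes β-catenin itself, was at 1077 ± 3.07 CPM in PBS and 949 ± 1.61 CPM at 4 h (-0.18 ± 0.02, adjusted p = 1) and was looked at after its value was known.

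Of 14 nuclear partners 3 were called higher and 4 lower at 4 h (all tested genes: 19.1% higher, 13.9% lower). The corepressors Tle4 (1.53 ± 0.06, adjusted p = 2.00e-13) and Tle3 (1.18 ± 0.04, adjusted p = 5.27e-14) rose with Tcf7l2 (1.05 ± 0.08, adjusted p = 3.17e-06). Ctnnbip1, an inhibitor of β-catenin (-1.76 ± 0.08, adjusted p = 7.89e-13), the coactivator Bcl9l (-1.65 ± 0.07, adjusted p = 3.00e-13) and Tcf7l1 (-1.29 ± 0.11, adjusted p = 1.37e-06) fell.

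The list of 15 other targets and barrier outputs had the lowest median, at -1.39. At 4 h 2 of its genes were called higher and 10 lower (all tested genes: 19.1% higher, 13.9% lower). Myc, a target in many tissues, rose from 1.87 ± 0.536 to 75.4 ± 4.60 CPM (5.34 ± 0.15, adjusted p = 5.00e-19), and Ccnd1 2.03-fold (adjusted p = 2.02e-10). Sox17, an endothelial transcription factor of arteries and barrier vessels, fell from 432 ± 9.36 to 37.9 ± 4.19 CPM (-3.52 ± 0.04, adjusted p = 2.81e-25). The amino acid transporter Slc7a5 fell 6.85-fold (adjusted p = 1.72e-26) after it had been higher at 15 min (0.65 ± 0.02, adjusted p = 0.0175).

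Cldn5, the main claudin of barrier tight junctions, was lower at all 3 times, from 2362 ± 70.8 CPM in PBS to 1420 ± 5.44, 1269 ± 3.49 and 475 ± 4.56 CPM (log2 fold change -0.73 ± 0.02, -0.90 ± 0.02 and -2.31 ± 0.02). In order of time the adjusted p was 1.27e-06, 3.44e-12 and 8.33e-27. Slc2a1 and Mfsd2a were higher at both early times and lower at 4 h. Slc2a1 stood at 2735 ± 51.1 CPM in PBS, 4455 ± 50.7 at 15 min, 5514 ± 20.4 at 30 min and 1324 ± 12.9 at 4 h, and all 3 changes were called (adjusted p = 1.77e-06, 1.53e-16 and 4.74e-18). Mfsd2a, the carrier of lysolipids with omega-3 fatty acids, stood at 106 ± 2.97 CPM in PBS, 202.2 ± 3.60 at 15 min, 184 ± 3.96 at 30 min and 28.0 ± 1.81 at 4 h, again with all 3 called (adjusted p = 5.49e-09, 6.87e-06 and 1.67e-18).

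**Figure D5:**
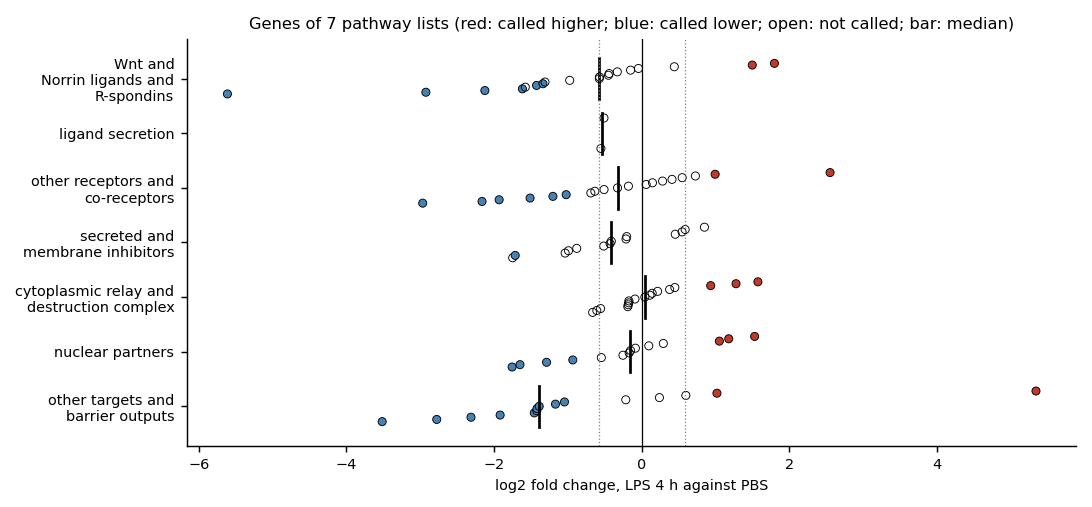
Log2 fold change at LPS 4 h against PBS of the 100 tested genes in 7 pathway lists, each point 1 gene and each bar the median of a list. Red points were called higher, blue points lower, open points were not called, and dotted lines mark the limit of the test at 0.58. The list of other targets and barrier outputs has the lowest median, at -1.39.

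Over the log2 CPM of the 12 libraries, the genes most like Axin2 among 12802 were Stard9 (Pearson r = 0.996), AI467606 (0.996) and Stard8 (0.996). For Axin2 the 4 h libraries stood apart from the rest, and their part in that likeness was not tested. No gene of the pathway lists was among the 3 most like any of the 10.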

How the data were processed

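RNA was measured in 12 libraries of mouse cerebral vessels, 3 per group, made with SMART-Seq v4 and Nextera XT kits. The authors ran Salmon 1.2.1 with a GRCm38.p6 annotation that their methods credit to NCBI, and the deposited files give TPM and estimated counts for each of 140948 transcripts. The authors also deposited a gene table of counts divided by size factors, a normalized signal, which was used only for the limma alternative. Here the estimated counts were summed per gene through the GENCODE M21 annotation, used here because the deposited files carry Ensembl transcript IDs (139852 transcripts joined, with 0.482 to 0.850% of fragments unjoined) and rounded to whole numbers. Levels of 54119 genes were expressed as CPM with TMM factors. Genes were filtered by edgeR's filterByExpr (minimum count 10, minimum total 15, proportion 0.7), which left 19150. All 12 libraries entered 1 edgeR 4.0.16 quasi-likelihood fit (R 4.3.3), and glmTreat tested 5 comparisons against a fold limit of 1.5 (0.58 on the log2 scale), with Benjamini-Hochberg adjustment over all tested genes and a threshold of 0.05. The common biological coefficient of variation was 0.0524. Depth of 18.3 to 25.9 M fragments per library sets the precision of genes with few fragments, and counting intervals (95%) cover counting error only. Each library pools 2 mice, and p-values measure only the spread between these libraries. Shares of transcripts were compared by exact two-sided permutation tests over libraries, and figures were drawn with matplotlib 3.10.9.

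The 10 genes, the pathway and marker lists and the tests were chosen with earlier results of these data known. The text names all 10 genes and the genes that overlap them, with values for those that were tested. In each pathway list it names the 3 largest rises and falls among genes called at 4 h (all of them where 6 or fewer were called). It also names any pathway gene called at 15 or 30 min, and the genes most like Axin2. Lrp5, Reck, Tspan12, Wnt7a, Wnt7b, Ndp and Ctnnb1 were added after their values were seen. Alternatives were DESeq2 1.42.0, limma 3.58.1 on the gene table with 1 or 10 added before log2, other scalings and filters, a length offset, other fold limits, a replicate block and leaving out each library.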

Additional observations from a re-analysis of the deposited data

Results flagged for a closer look

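For 8 of the 10 genes the change against PBS differed between LPS 4 h and LPS 30 min, by the edgeR test of the 4 h against the 30 min libraries. This is the comparison given above, in which 28.9% of all tested genes were called, 17% higher and 11.9% lower. The difference in log2 fold change was -5.51 for Notum (adjusted p = 7.06e-22), -3.25 for Tcf7 (adjusted p = 3.5e-18), -2.51 for Nkd1 (adjusted p = 9.24e-20) and -1.99 for Tnfrsf19 (adjusted p = 4.55e-19). It was -1.81 for Fzd6 (adjusted p = 7.84e-19), -1.69 for Axin2 (adjusted p = 9.54e-14) and -1.53 for Apcdd1 (adjusted p = 2.47e-19). Fzd4 was the 1 gene with a further rise, of 1.09 (adjusted p = 3.76e-15), which was not called with scaling by library size only.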

How the results depend on the processing

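Over 12 other settings none of 600 changes of the 10 genes turned its direction past a call and 36 had another call, and over the leave-outs 0 of 300 turned and 3 had another call. At 15 min the count of the 10 genes called, 1 as reported, was 0 with endothelial scaling, when called genes also had to pass a log2 fold change of 1.5 (the added limit), and by limma with 1 or 10 added, and 5 with no fold limit. Leaving out 1 library gave 0 to 1, with 0 without LPS 15 min replicate 3. At 30 min the count, also 1, was 2 by library size only, 5 with no fold limit and 0 with the added limit. From 15 to 30 min it was 5 with no fold limit. Of pathway genes, 7 were called at 15 min, against 56 with no fold limit, 3 with the added limit and 4 by limma with either value added. At 30 min 7 became 49 with no fold limit, 0 with the added limit and 4 by limma with 10 added. At 4 h 39 became 69 by library size only, 80 with no fold limit and 21 with the added limit. Of all 19150 tested genes, no fold limit called 7393 at 15 min, 7066 at 30 min, 13124 at 4 h and 7153 from 15 to 30 min. The added limit called 322, 514 and 3010 against PBS in order of time. Library size only called 893 at 30 min and 10523 at 4 h, and endothelial scaling 1025 at 15 min. Of 19145 genes, limma called 410 or 388 at 15 min with 1 or 10 added, and 503 at 30 min with 10 added. The fewer or more calls under another fold limit follow from that limit, and for the other settings the cause was not tested. Library size only moved the median of all genes at 4 h to -0.71, and endothelial scaling to 0.14. The count of transcript shares that did not overlap, 7 as reported, ran from 7 to 13 when a library was left out, with 13 without LPS 4 h replicate 2. Replicate numbers did not pair the libraries (correlation of same-numbered libraries -0.05 to 0.07 over 18 pairs, 0 over 0.1), and with the replicate block the 10 genes had 1, 1 and 9 calls against PBS in order of time, 0 from 15 to 30 min and 8 from 30 min to 4 h, and the pathway genes 7, 7 and 40. At 4 h few fragments were behind Notum, its antisense genes, Wnt9b, Fzd10, A630014C17Rik and Gm26704.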
